A study of Homo sapiens with 17 samples.

Results

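The genes described here are the lysosomal cathepsins and the subunits and accessory proteins of the vacuolar proton pump (V-ATPase). They were chosen by symbol alone: every gene whose symbol was CTS followed by 1 letter, or began with ATP6V or ATP6AP, and whose probe set carried that symbol only. This gave 36 genes of 17687 measured, with 1 probe set each: 15 cathepsins and 21 V-ATPase genes. TCIRG1, which codes for a further subunit of the pump under another name, lies outside this symbol rule and is given beside it.

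The 17 Affymetrix arrays measured RNA of cultured human breast cells, seeded 24 h before a treatment of 48 h. MDA-MB-231, a triple-negative breast cancer line, received Maraviroc (an antiviral drug, set against its solvent ethanol) or DZH_2 (a compound known only by this code name, set against its solvent DMSO), each at IC20 and IC50, the concentrations that inhibit by 20% and 50%. Each of these 6 groups had 2 arrays, and untreated MDA-MB-231 cells had 1. Cells titled MCF10, the name of a non-tumorigenic mammary epithelial line, received DZH_2 at IC20, DZH_2 at IC50, DMSO or no treatment, with 1 array each. The sources used here do not give the concentrations behind IC20 and IC50, the property inhibited or the origin of the replicates.

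The lysosome is an acidic compartment in which the cell breaks down proteins and lipids. Most cathepsins work there as proteases. The family is largely of cysteine proteases, with CTSD and CTSE of the aspartic class and CTSA and CTSG of the serine class. The V-ATPase pumps protons into the lumen: its peripheral V1 sector splits ATP and turns a rotor, and its membrane V0 sector carries the protons. Many lysosomal genes carry a CACGTG core near their start that is read by TFEB and related transcription factors.

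On the arrays, the pump genes and the cathepsins did not move as a block under either compound. Maraviroc at IC50 raised 12 of the 36 genes and lowered 5, where 12% of all genes on the arrays rose and 15% fell. The share of members lower was thus near that of all genes. The rises were in the 2 accessory proteins, both V-ATPase sectors and 4 cathepsins, and the falls included CTSC and CTSH. DZH_2 raised CTSD by 6.36-fold at IC20 and 6.12-fold at IC50, and ATP6AP1 by 3.0-fold and 2.56-fold, and no other member passed the test. Maraviroc at IC20 moved none past the test. In the MCF10 arrays under DZH_2 a different set stood out: 5 genes of the V1 sector and ATP6AP2 lay above the DMSO array by more than 2-fold at both doses, where 4.52% of all genes did. Against the untreated array 2 of these 5 V1 genes, ATP6V1C1 and ATP6V1D, stayed past 2-fold, so the V1 pattern depends on which single control array is used.

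Promoter windows are printed first for the members that hold CACGTG in the 250 bases before their start, because these letters are the core of the motif for which lysosomal genes are known and because several of these genes moved. RefSeq promoters (GRCh38.p14) were found for 25 of the 36 members. Of these, 7 (28.0%) held CACGTG, against 7.73% of the 27305 genes in the same table. The longer palindrome TCACGTGA, which contains CACGTG, was held by 3 of 25 (12%) against 1.04% of all genes. Both words read the same on both strands, so each match counts for both. In the windows the matched letters are in capitals, TCACGTGA where the full palindrome is there and CACGTG otherwise, and the sequence is written 5′ to 3′ on the strand of the gene.
CTSD (chr11:1763939-1764004, minus strand): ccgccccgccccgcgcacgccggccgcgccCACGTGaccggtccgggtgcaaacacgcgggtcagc
CTSA (chr20:45891263-45891334, plus strand): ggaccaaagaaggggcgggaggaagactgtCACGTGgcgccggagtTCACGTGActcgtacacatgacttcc
CTSF (chr11:66568622-66568759, minus strand): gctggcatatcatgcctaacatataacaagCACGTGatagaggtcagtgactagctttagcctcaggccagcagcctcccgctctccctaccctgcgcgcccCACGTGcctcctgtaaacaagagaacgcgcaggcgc
ATP6V0B (chr1:43974873-43974956, plus strand): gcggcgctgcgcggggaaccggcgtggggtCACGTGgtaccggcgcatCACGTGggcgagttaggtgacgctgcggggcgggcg
ATP6V0D1 (chr16:67481181-67481246, minus strand): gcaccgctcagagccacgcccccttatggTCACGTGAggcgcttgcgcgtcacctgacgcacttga
ATP6V0E2 (chr7:149872866-149872931, plus strand): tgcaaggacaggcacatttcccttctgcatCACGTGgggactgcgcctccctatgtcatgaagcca
ATP6V1G1 (chr9:114587681-114587746, plus strand): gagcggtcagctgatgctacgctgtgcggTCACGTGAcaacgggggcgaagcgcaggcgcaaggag

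The matches nearest to the start lay 47 bases before it in CTSD, 25 in CTSA, 51 in CTSF, 39 in ATP6V0B, 59 in ATP6V0D1 and 58 in ATP6V1G1. In ATP6V0E2, 2 annotated starts share the match, at 68 and 72 bases. Of the 7 genes, CTSD, ATP6V0B, ATP6V0D1 and ATP6V1G1 were higher past the test with Maraviroc at IC50, ATP6V0E2 was lower, and CTSA and CTSF did not pass. Over all genes 12% were higher and 15% lower. Members whose windows held neither word passed too: ATP6AP1, ATP6AP2, ATP6V1B1, ATP6V1F and CTSL were higher, and CTSC and CTSH lower. A link between these letters and the response was not tested. CTSD was also higher with DZH_2. ATP6AP1, the member that passed in both compounds beside CTSD, held neither word in this window. A match describes letters in the window and not binding of a factor.

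Replicates of Maraviroc IC50 stood further apart than those of the other groups. They correlated across genes at 0.960, with an SD of 0.546, against 0.984 to 0.991 and 0.277 to 0.366 in the other replicated groups. The interquartile range of their signals was 4.05 and 4.07, against 4.21 to 4.65 on the other MDA-MB-231 arrays. The arrays titled MCF10 carry MDA-MB-231 in their cell line field. Of 6 basal epithelial markers 5 were higher there by at least 1 on the log2 scale. Of 10 luminal and general epithelial markers 6 lay near the negative controls there, CDH1, CLDN1 and EPCAM among them at 4.07, 4.50 and 5.24, while KRT8 and KRT18 were high at 14.18 and 12.80. Of 9 fibroblast and matrix markers 4 were higher there by at least 1, with FBLN1 at 13.65 and MMP2 at 13.79, and of 10 mesenchymal markers 4 were higher, with FN1 at 17.64, and 6 lower. In the control arrays S100A2 was at 14.85 in MCF10 against 6.56 in MDA-MB-231, and ZEB1 at 7.23 against 12.10. The arrays titled MCF10 thus differed from the MDA-MB-231 arrays in these markers, which did not settle which line they came from. These arrays are called MCF10 after their titles. Of 10 leukocyte markers, the usual source of CTSG, CTSS and CTSW, LYZ, MPO, CD8A and AIF1 lay near the negative controls in both lines and PTPRC in MDA-MB-231 alone. The other 5 lay above them in both, from CD3E at 5.97 in MDA-MB-231 and 7.50 in MCF10 to CD68 at 13.89 and 12.57. A gene is called near the negative controls here where its group mean did not reach the level that 75% of the negative controls stayed under, which was 5.67 to 6.38 in the groups of MDA-MB-231 and, for the markers, 5.89 over all arrays. In bulk RNA, fewer cells with a transcript and less transcript per cell cannot be told apart.

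Whether Maraviroc moved these genes at the higher dose was tested by limma on the log2 signals of the 12 MDA-MB-231 arrays with replicates, with p-values adjusted over all 17687 genes and called under 0.05. All values given below as levels are log2 signals of 1 probe set, and they are not compared between genes. Of the 36 members 17 passed, 12 higher and 5 lower, where 27.0% of all genes passed (12% higher and 15% lower). The median log2 difference was 0.75 over the V-ATPase genes and 0.27 over the cathepsins, against 0.11 over all genes. With every array centred on its own median, the median over all genes became 0.28, and there were 17 members higher and 2 lower. Of all 17687 genes 3018 were then higher and 2308 lower, against 2122 and 2656 in the values as deposited. Quantile normalization gave 16 members higher and 3 lower, and 2506 and 2337 of all genes. The falls of ATP6V0E2 and ATP6V1H were lost under both of these scalings and that of CTSW under the first, while the falls of CTSC and CTSH held under both. Without ethanol replicate 1 or without ethanol replicate 2 fewer members passed, and fewer of all genes did too.

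**Figure D1:**
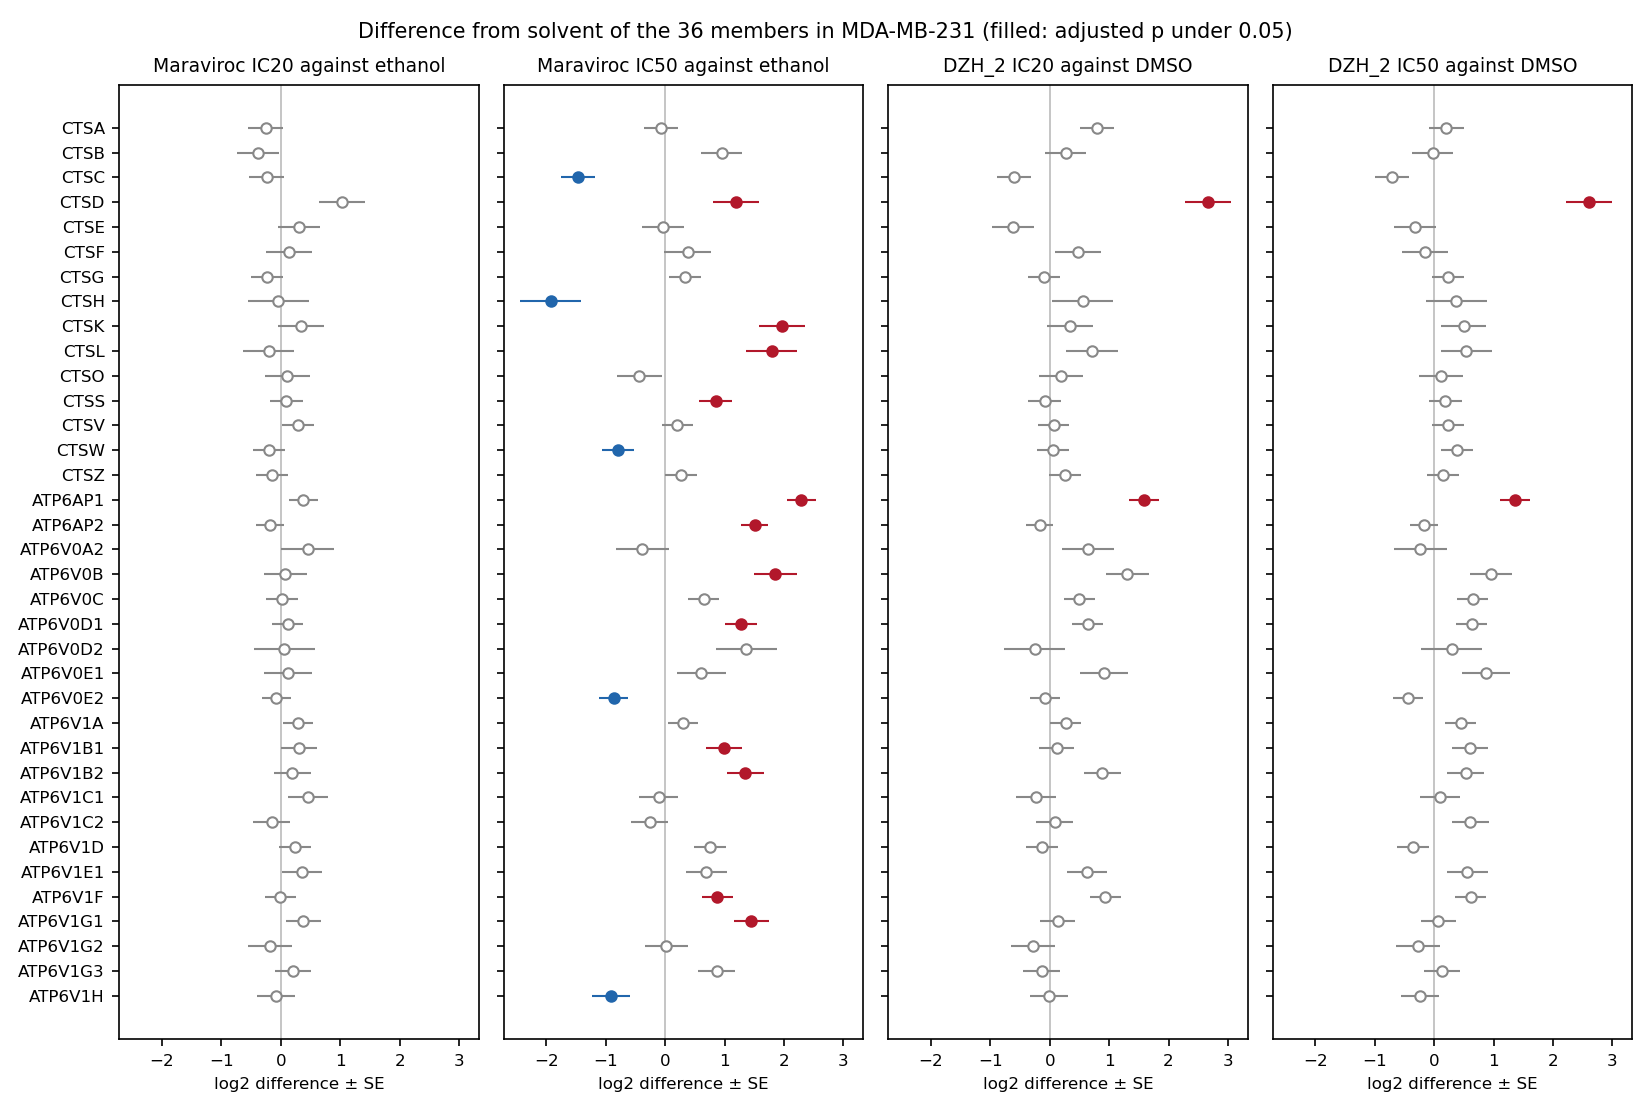
Log2 difference from the solvent (x axis, ± SE by limma) of each of the 36 members (y axis) in MDA-MB-231, for Maraviroc IC20, Maraviroc IC50, DZH_2 IC20 and DZH_2 IC50. Filled points passed an adjusted p under 0.05 (red higher, blue lower): 0, 17, 2 and 2 members.

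The accessory proteins of the pump rose together. ATP6AP1 (Ac45, which helps assemble V0 and guides the pump) had signals of 9.36 and 9.49 with ethanol, 9.70 and 9.91 with Maraviroc IC20, and 11.94 and 11.50 with IC50. The untreated array was at 8.95. Both IC50 arrays lay above every other MDA-MB-231 array, and the difference from ethanol was 2.29 ± 0.25 (4.90-fold, adjusted p = 3.8e-05). ATP6AP2, the prorenin receptor, which is also needed for assembly of the pump, had 11.22 and 11.20 with ethanol, 11.18 and 10.88 with IC20, and 12.72 and 12.70 with IC50. Here too both IC50 arrays stood apart, while the other 11 MDA-MB-231 arrays lay between 10.88 and 11.55. The difference was 1.50 ± 0.23 (adjusted p = 4.6e-04).

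In the V0 sector 2 of 7 genes rose and 1 fell, beside the 12% and 15% of all genes. ATP6V0B, the c'' proteolipid of the rotor ring, had 10.47 and 10.99 with ethanol and 12.79 and 12.37 with Maraviroc IC50, the highest signals of the gene in MDA-MB-231 (1.85 ± 0.36, adjusted p = 0.0023). ATP6V0D1, the d subunit that links the ring to the central stalk, had 12.53 and 12.62 with ethanol and 14.00 and 13.71 with IC50 (1.28 ± 0.26, adjusted p = 0.0032). Both genes had their IC20 arrays in or near the range of ethanol, at 10.40 and 11.21 for ATP6V0B and 12.44 and 12.95 for ATP6V0D1. Their ethanol arrays lay above both of their DMSO arrays, at 10.05 and 9.39 for ATP6V0B and 11.87 and 12.02 for ATP6V0D1. ATP6V0E2, a form of the small e subunit, had 8.42 and 8.52 with ethanol against 7.50 and 7.69 with IC50 and fell by 0.87 ± 0.25 (adjusted p = 0.021). The groups did not overlap, but the IC50 values were close to the 7.61 and 7.68 seen with DZH_2 IC50 and the 7.80 of the untreated array, and the fall missed the threshold without IC50 replicate 1 or either ethanol array.

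The other V0 genes did not pass. ATP6V0C, the c proteolipid, had 12.42 and 12.53 with ethanol and 13.01 and 13.22 with IC50 (0.65 ± 0.27, adjusted p = 0.094). ATP6V0D2, the form of d known from osteoclasts, was at 6.33 and 4.89 against 6.40 and 7.54 (1.37 ± 0.51, adjusted p = 0.067), with 1 ethanol array below the negative control level. ATP6V0A2, which codes for an a subunit, and ATP6V0E1 had 1 IC50 array apart from the other: 10.36 and 8.87 for the former and 16.66 and 15.21 for the latter. TCIRG1, the a3 subunit known from osteoclasts, had 10.99 and 11.66 with ethanol, 11.54 and 11.50 with IC20, and 12.23 and 13.26 with IC50. It was higher at IC50 by 1.42 ± 0.34 (adjusted p = 0.0078), with both IC50 arrays above all others in MDA-MB-231.

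In the V1 sector 4 of 12 genes rose and 1 fell, beside the same 12% and 15%. ATP6V1G1, a subunit of the peripheral stalks, had 10.14 and 10.30 with ethanol, 10.52 and 10.68 with IC20, and 12.10 and 11.24 with IC50 (1.45 ± 0.29, adjusted p = 0.0026). ATP6V1B2, the widely expressed form of the B subunit in the ATP-splitting head, had 10.22 and 10.77 with ethanol, 10.81 and 10.57 with IC20, and 11.90 and 11.80 with IC50 (1.35 ± 0.31, adjusted p = 0.0058). In both genes the IC50 arrays were the highest of the line. ATP6V1B1, the form of B known from the kidney and inner ear, had 6.55 and 6.02 with ethanol. With IC50 it had 7.26 and 7.29 (0.99 ± 0.30, adjusted p = 0.027). These signals were not far above the negative control level, which was 5.67 with ethanol and 6.38 with IC50. The part of that level in the rise was not tested. ATP6V1F, a subunit of the central stalk, had 12.97 and 13.22 with ethanol and 14.05 and 13.89 with IC50 (0.88 ± 0.26, adjusted p = 0.025). These 2 rises were lost without 1 array: ATP6V1B1 without either IC50 array or ethanol replicate 2, and ATP6V1F without IC50 replicate 1 or either ethanol array. The rise of ATP6V1B2 was lost without ethanol replicate 1 (adjusted p = 0.069).

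ATP6V1H, which bridges the head and V0, was the V1 gene that fell. It had 8.53 and 8.16 with ethanol, 8.45 and 8.08 with IC20, and 7.05 and 7.81 with IC50 (-0.91 ± 0.32, adjusted p = 0.0496). The IC50 arrays were the lowest of the line, but the call held in 4 of 13 alternative settings and was lost without IC50 replicate 1 or either ethanol array. The remaining V1 genes did not pass: ATP6V1A, the catalytic subunit, differed by 0.30, ATP6V1C1 by -0.11, ATP6V1C2 by -0.26, ATP6V1D by 0.75, ATP6V1E1 by 0.69, ATP6V1G2 by 0.02 and ATP6V1G3 by 0.86. RefSeq lists pseudogenes named after ATP6V0C, ATP6V0E1, ATP6V1E1, ATP6V1F and ATP6V1G1, whose probe sets are therefore uncertain as readings of 1 gene.

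**Figure D2:**
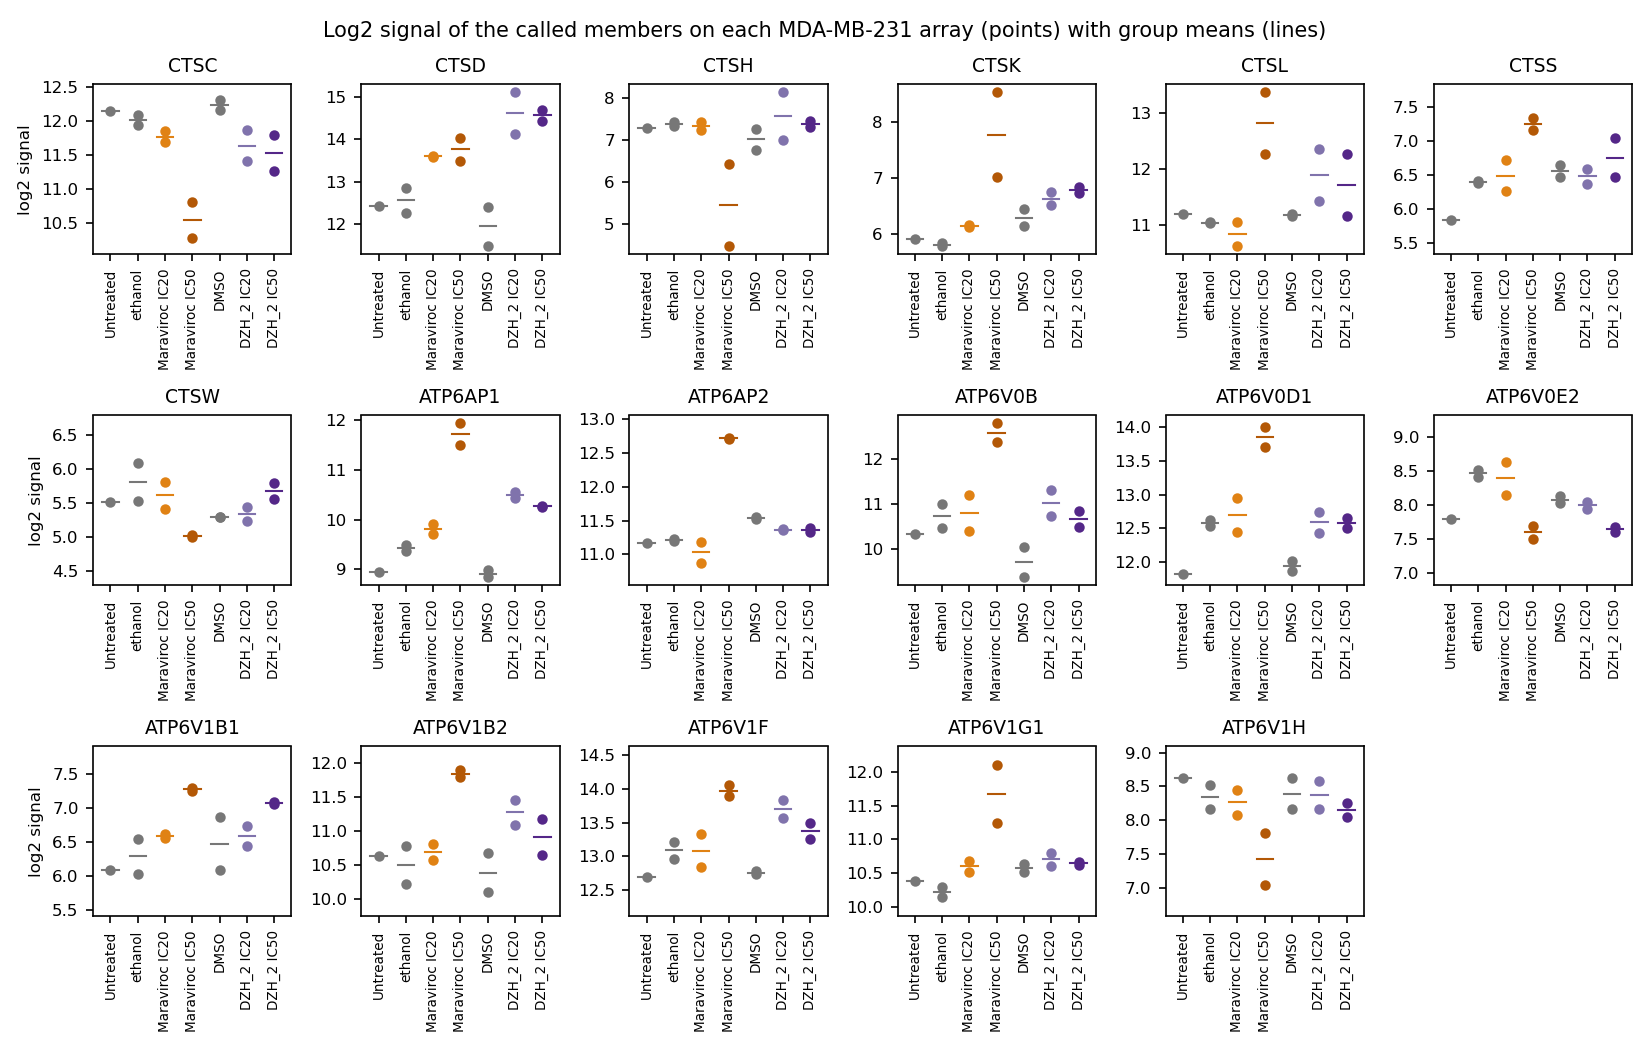
Log2 signal (y axis) on each MDA-MB-231 array (points), by group (x axis), with group means as lines, for the 17 members that passed in at least 1 comparison with a solvent. Each panel has its own y range. The Maraviroc IC50 arrays stood apart in ATP6AP1, ATP6AP2 and ATP6V0B, and the DZH_2 arrays were the highest in CTSD.

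Among the cathepsins 4 of 15 rose and 3 fell, where 12% of all genes rose and 15% fell. CTSK, the collagen-degrading protease known from osteoclasts, had 5.79 and 5.85 with ethanol, 6.14 and 6.18 with IC20, and 7.02 and 8.54 with IC50. It was higher at IC50 by 1.96 ± 0.38 (adjusted p = 0.0023), from a level close to that of the negative controls. CTSL, a broad cysteine endopeptidase, had 11.03 and 11.05 with ethanol, 11.05 and 10.62 with IC20, and 12.28 and 13.38 with IC50 (1.79 ± 0.43, adjusted p = 0.0083). In both genes IC50 replicate 2 was more than 1 unit above replicate 1, and without replicate 2 the rise of CTSL missed the threshold (1.24, adjusted p = 0.059). RefSeq lists a pseudogene named after CTSL. CTSS, which trims the invariant chain of MHC class II, had 6.38 and 6.41 with ethanol. With IC50 it had 7.16 and 7.34 (0.85 ± 0.28, adjusted p = 0.037). This rise was lost without IC50 replicate 2 or either ethanol array. The negative control level was 5.67 with ethanol and 6.38 with IC50, and its part in the rise of CTSS was not tested.

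CTSD, the main aspartic protease of the lysosome, had 12.27 and 12.85 with ethanol, 13.61 and 13.57 with IC20, and 14.02 and 13.49 with IC50. All 4 treated arrays lay above both ethanol arrays, and the lower IC50 array lay below both IC20 arrays. At IC50 the difference was 1.20 ± 0.39 (adjusted p = 0.036). That call was lost without IC50 replicate 1 or either ethanol array, and with the 4 arrays of the 2 groups fitted alone.

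CTSC, the dipeptidyl peptidase that activates serine proteases of immune cell granules, had 12.09 and 11.94 with ethanol, 11.69 and 11.86 with IC20, and 10.81 and 10.28 with IC50. The IC50 arrays were the lowest of the line, and the difference of -1.47 ± 0.29 (adjusted p = 0.0023) held in all 13 alternative settings. CTSH, an aminopeptidase, had 7.34 and 7.43 with ethanol and 6.43 and 4.48 with IC50 (-1.93 ± 0.51, adjusted p = 0.014). The replicates stood far apart, the IC50 mean was near the negative controls, and without replicate 2 the difference was -0.96 and did not pass. The call was also lost without either ethanol array. CTSW, known from cytotoxic lymphocytes, had 6.09 and 5.53 with ethanol and 5.0 and 5.03 with IC50 (-0.79 ± 0.27, adjusted p = 0.046). The IC50 level was near the negative controls, and the call held in 5 of 12 settings, not without either IC50 array or without ethanol replicate 1.

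The other 8 cathepsins did not pass. CTSB, an abundant cysteine protease with both endo- and exopeptidase activity, had 12.94 and 13.34 with ethanol and 14.09 on both IC50 arrays (0.95 ± 0.35, adjusted p = 0.062). The values did not overlap, and CTSB passed against Maraviroc IC20 instead. CTSA, the carboxypeptidase that protects lysosomal neuraminidase and beta-galactosidase, differed by -0.07, and CTSZ, another carboxypeptidase, by 0.27. The cysteine proteases CTSF, CTSO and CTSV differed by 0.38, -0.43 and 0.21, the aspartic protease CTSE by -0.04 and the neutrophil protease CTSG by 0.33. CTSV lay near the negative controls in every group of both lines.

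Set directly against IC20, Maraviroc IC50 moved 13 of 36 members past the test, 10 higher and 3 lower, where 26.7% of all genes passed. The comparison shares its IC50 arrays with the comparison above, so it is not a separate sign of the same change. It added CTSB, with 12.70 and 12.82 at IC20 (1.33 ± 0.35, adjusted p = 0.013). ATP6AP1, ATP6AP2, ATP6V0B, ATP6V0D1, ATP6V1B2, ATP6V1F, ATP6V1G1, CTSK and CTSL were again higher, and ATP6V0E2, CTSC and CTSH lower. CTSD did not pass between the doses (0.16 ± 0.39, adjusted p = 0.80). Without IC20 replicate 1 the count was 6, and without IC20 replicate 2 it was 7.

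Maraviroc at IC20 moved no member past the test by limma, and none of the 17687 genes passed, with 309 at an unadjusted p under 0.05. Among the members CTSD alone was below that unadjusted level (1.03 ± 0.39, adjusted p = 1.00). The other 35 members differed from ethanol by -0.38 to 0.46.

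The question for DZH_2 was the same, against DMSO. At IC20 2 of 36 members passed, both higher, where 0.871% of all genes passed in either direction and 0.435% were higher. At IC50 the same 2 members passed, where 1.57% of all genes did and 0.582% were higher. They were CTSD and ATP6AP1.

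CTSD had 12.41 and 11.48 with DMSO, 15.10 and 14.12 with DZH_2 IC20, and 14.68 and 14.43 with IC50. All 4 DZH_2 arrays lay above every other MDA-MB-231 array, the highest of which was 14.02 with Maraviroc IC50, and the DMSO arrays differed from each other by almost 1 unit. The differences were 2.67 ± 0.39 at IC20 (adjusted p = 0.012) and 2.61 ± 0.39 at IC50 (adjusted p = 0.010). The step between the doses was -0.06, with a 95% interval of -0.89 to 0.78. Against all 5 control arrays of the line the call held at both doses.

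ATP6AP1 had 8.84 and 8.97 with DMSO, 10.42 and 10.56 with IC20, and 10.26 and 10.27 with IC50. The 4 DZH_2 arrays lay between the controls, none of which was above 9.49, and the Maraviroc IC50 arrays at 11.50 and 11.94. The differences were 1.59 ± 0.25 at IC20 (adjusted p = 0.017) and 1.36 ± 0.25 at IC50 (adjusted p = 0.024). The step between the doses was -0.23, with an interval of -0.77 to 0.31.

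The calls of CTSD and ATP6AP1 rest on 2 arrays per group. Both calls were lost at both doses without either DMSO array, and at IC50 without either IC50 array. Far fewer of all genes passed in these settings as well, so the loss is not particular to CTSD and ATP6AP1. Without IC20 replicate 2 CTSD passed at IC20 and ATP6AP1 did not. In all of these settings both genes stayed higher with DZH_2, CTSD by 2.15 to 3.16 and ATP6AP1 by 1.14 to 1.65 over the alternatives of both doses.

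The other 34 members did not pass with DZH_2. ATP6V0B came next at IC20, with 10.05 and 9.39 with DMSO, 11.32 and 10.73 with IC20, and 10.86 and 10.49 with IC50 (1.31 ± 0.36, adjusted p = 0.12, and 0.96 ± 0.36, adjusted p = 0.22). The groups did not overlap. ATP6V1F had 12.75 and 12.78 with DMSO, 13.56 and 13.83 with IC20, and 13.26 and 13.50 with IC50 (0.93 and 0.61, adjusted p = 0.13 and 0.29). CTSC had 12.31 and 12.17 with DMSO, 11.41 and 11.87 with IC20, and 11.27 and 11.80 with IC50 (-0.60 and -0.71, adjusted p = 0.45 and 0.27). ATP6V0D1, with 12.75 and 12.43 at IC20 and 12.51 and 12.65 at IC50, differed by 0.64 and 0.63 from DMSO (adjusted p = 0.35 and 0.28).

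The other members that passed with Maraviroc IC50 are given here with their DMSO values first. ATP6AP2 had 11.55 and 11.52 with DMSO and 11.34 to 11.40 on the 4 DZH_2 arrays, which lay just below. ATP6V1G1 had 10.64 and 10.51 against 10.61 to 10.81, with groups that lay close together. ATP6V1B2 had 10.67 and 10.09 with DMSO and 10.65 to 11.45 with DZH_2, and its IC20 arrays lay above both DMSO arrays (0.89 ± 0.31, adjusted p = 0.24). CTSL had 11.16 and 11.19 with DMSO and 11.16 to 12.35 with DZH_2, where replicate 2 of each dose was the higher and the IC20 arrays did not overlap with DMSO (0.71 ± 0.43, adjusted p = 0.59). CTSK had 6.14 and 6.45 against 6.52 to 6.84, and CTSS 6.65 and 6.48 against 6.37 to 7.04. CTSH had 7.27 and 6.77 against 7.02 to 8.14, ATP6V1H 8.62 and 8.16 against 8.05 to 8.59, and ATP6V0E2 8.03 and 8.13 against 7.61 to 8.05. ATP6V1B1 and CTSW had 6.08 to 6.87 and 5.29 to 5.30 with DMSO, against 6.44 to 7.08 and 5.24 to 5.80. Over all 36 members the median difference was 0.22 at IC20 and 0.23 at IC50, against 0.00 and 0.04 over all genes. No member passed between the 2 doses of DZH_2, nor did any gene (721 at an unadjusted p under 0.05, none of them a member).

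The compounds were then compared as the difference of their differences from solvent, for 1 pair of compounds at 2 nominal inhibitory levels, with adjustment over all genes. Whether a level of the same name was equally strong for both compounds is not known here. No structure is known here for DZH_2. At IC50 1 of 36 members passed, where 6.17% of all genes did, 2.15% higher and 4.02% lower. It was ATP6AP2, for which the Maraviroc difference exceeded that of DZH_2 by 1.67 ± 0.33 (95% interval 0.96 to 2.39, adjusted p = 0.010), and this call held in all 17 alternative settings. Without Maraviroc IC50 replicate 1 the count was 3, and without replicate 2 it was 2. CTSH had a larger difference that did not pass (-2.30, interval -3.88 to -0.73, adjusted p = 0.084), and CTSK differed by 1.47 (0.29 to 2.65, adjusted p = 0.14).

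For the 2 genes that passed under both compounds, the test of the difference did not pass. CTSD was higher by 2.61 with DZH_2 and by 1.20 with Maraviroc, a difference of -1.42 with an interval of -2.60 to -0.23 (adjusted p = 0.16). ATP6AP1 was higher by 2.29 with Maraviroc and by 1.36 with DZH_2, a difference of 0.94 with an interval of 0.18 to 1.70 (adjusted p = 0.15). ATP6V1G1 differed by 1.38 (0.49 to 2.27, adjusted p = 0.069) and CTSC by -0.77 (-1.65 to 0.12, adjusted p = 0.34). The intervals of CTSD, ATP6AP1 and ATP6V1G1, which are not adjusted over all genes, did not include equal responses, and that of CTSC did. All of them leave room for large differences, so equal responses are not shown.

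At IC20 no member passed, and no gene did (1273 at an unadjusted p under 0.05). Of the members, CTSD (-1.64, interval -2.82 to -0.45, adjusted p = 0.53) and ATP6AP1 (-1.21, -1.97 to -0.44, adjusted p = 0.49) lay lower under Maraviroc. The solvents bear on these values. Between ethanol and DMSO no member and no gene passed, with 4 members among the 1352 genes at an unadjusted p under 0.05. CTSA was 1.06 higher with ethanol (12.91 and 13.60 against 12.26 and 12.13, adjusted p = 0.51) and ATP6V0B 1.02 higher (adjusted p = 0.57), each without overlap.

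**Figure D3:**
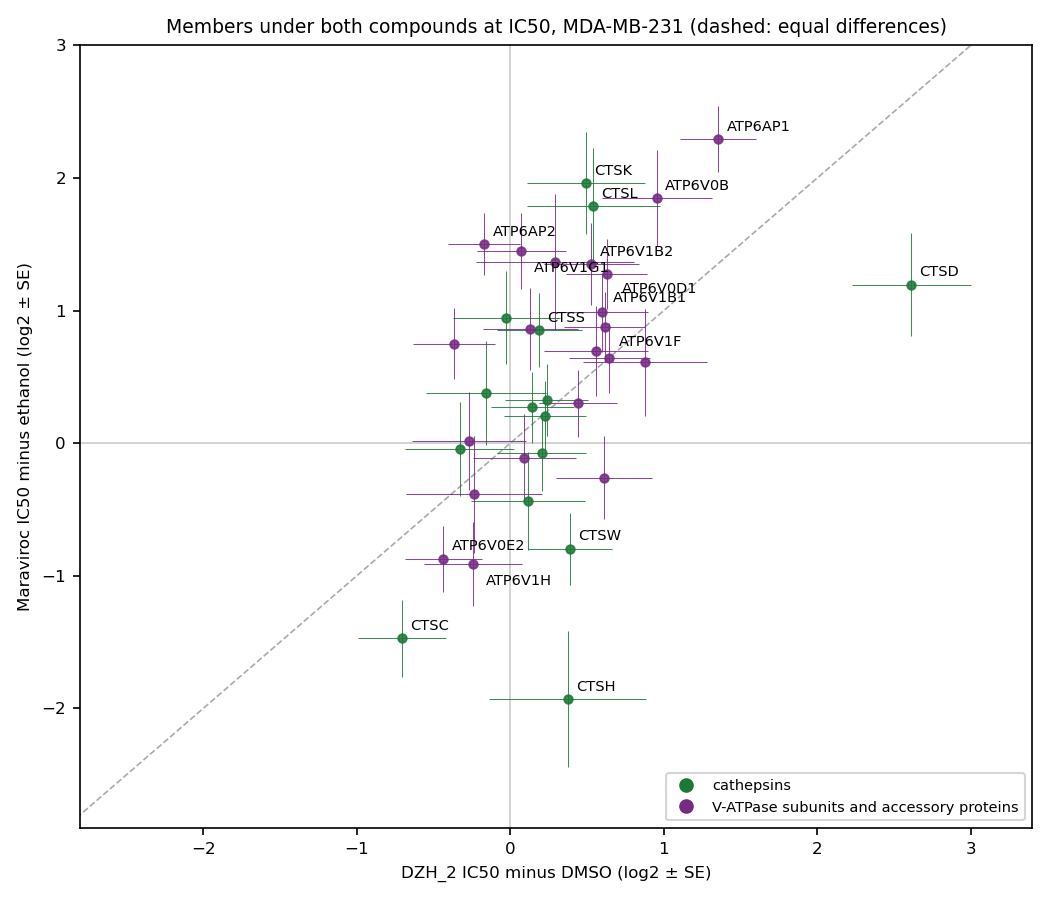
Log2 difference from DMSO with DZH_2 IC50 (x axis) and from ethanol with Maraviroc IC50 (y axis) of the 36 members in MDA-MB-231, each ± SE by limma. Members that passed either comparison are named. ATP6AP2 lies at -0.17 and 1.50 and CTSD at 2.61 and 1.20, on opposite sides of the dashed line of equal differences.

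Other genes of the lysosome were read from 5 lists grouped by function, 100 measured genes in all. The lists were chosen with earlier results of these data known. With Maraviroc IC50, 10 of 29 other hydrolases and activators rose and 1 fell. IDUA, which cleaves iduronic acid from glycosaminoglycans, rose by 2.78 ± 0.40, PSAP, the precursor of the saposins, by 1.72 ± 0.26 and HEXA, a hexosaminidase subunit, by 1.64 ± 0.28. PPT1, a thioesterase that removes palmitate from proteins, fell (-2.03 ± 0.26). Of 25 membrane proteins and channels 7 rose and none fell, including the cholesterol exporter NPC1 (3.31 ± 0.47), the chloride and proton exchanger CLCN7 (2.97 ± 0.31), the tetraspanin CD63 (2.04 ± 0.43) and the channel TPCN2 (1.95 ± 0.28). The median difference was 0.59 for the hydrolases and 0.57 for the membrane proteins, against 0.11 for all genes, of which 27.0% passed. With DZH_2 the hydrolases had a median of 0.59 at both IC20 and IC50, with 25 of 29 higher at each dose, and the membrane proteins 0.47 and 0.29, against 0.00 and 0.04 for all genes. The difference of the compounds at IC50 had a median of -0.05 over the hydrolases and 0.11 over the membrane proteins. Between the solvents, ethanol against DMSO, the hydrolases had a median of 0.47 with 23 of 29 higher, and the membrane proteins 0.13. Over the 5 lists 31 genes passed, and 20 without ethanol replicate 1.

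Of 14 partners of the pump outside the symbol rule, 4 rose and 1 fell with Maraviroc IC50, where 12% of all genes rose and 15% fell. Beside TCIRG1, TBC1D24 and MEAK7, both with a TLDc domain, rose by 1.47 ± 0.31 and 1.66 ± 0.40, and WDR7, a part of the rabconnectin complex that assembles the pump, fell (-0.89 ± 0.27). Of 10 inhibitors of cathepsins none rose and 1 fell: SERPINB1, an inhibitor of CTSG and other granule proteases (-2.64 ± 0.38). Of 22 transcription factors and nutrient sensors 5 rose and 2 fell, a total close to the 27.0% of all genes that passed, with the largest rise in FLCN (2.59 ± 0.24), a GTPase activator that acts on RRAGC and RRAGD, and further rises in RRAGA (1.41 ± 0.25), LAMTOR5 (1.35 ± 0.26) and RRAGB (1.25 ± 0.28). TFEB and its relatives TFE3 and MITF did not pass against ethanol, and they are named for their role and after their values were seen. TFEB lay between 2.90 and 3.26 on the 17 arrays, under the level of the negative controls. TFE3 lay between 7.54 and 10.50 and differed by 0.61 ± 0.32 (adjusted p = 0.19), and MITF lay between 5.99 and 9.17 and differed by -0.87 ± 0.41 (adjusted p = 0.15).

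With DZH_2 2 of the 29 hydrolases and 1 of the 25 membrane proteins passed at IC20, where 0.871% of all genes did, and 3 and 2 at IC50, where 1.57% did, all higher. LGMN, the asparaginyl endopeptidase that processes cathepsins, rose by 1.61 ± 0.32 at IC20 and 1.57 ± 0.32 at IC50. PSAP rose by 1.26 ± 0.26 and 1.23 ± 0.26, and the sialic acid exporter SLC17A5 by 1.55 ± 0.31 and 2.13 ± 0.31. At IC50 alone the ceramidase ASAH1 (1.62 ± 0.36) and NPC1 (2.29 ± 0.47) passed as well. No pump partner, inhibitor, or transcription factor or nutrient sensor passed at either dose, and TCIRG1 differed by 0.98 and 0.96 (adjusted p = 0.24 and 0.19). Its values were 10.68 and 10.87 with DMSO and 11.61 to 11.86 with DZH_2, without overlap.

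In the arrays titled MCF10 each condition had 1 array, so there is no test and no replicate check. Members were counted where both DZH_2 arrays lay at least 1 log2 unit from the DMSO array. There were 6 higher and 2 lower of 36, where 4.52% of all genes were higher and 4.88% lower by this rule. Of the 6, 5 belonged to the V1 sector, which has 12 genes, and none to V0, which has 7. The median over V1 was 1.19 at IC20 and 0.81 at IC50, over V0 -0.21 and 0.20, and over all genes 0.02 and 0.01.

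ATP6V1C1, which codes for a form of the C subunit, had 5.71 with DMSO, 6.39 untreated, 8.75 with DZH_2 IC20 and 8.18 with IC50. ATP6V1D, of the central stalk, had 6.21, 6.48, 8.32 and 8.10 in the same order. Both genes lay near the negative controls in the DMSO array, where the 75th percentile was 6.21, and their DZH_2 arrays lay in the range seen in MDA-MB-231 (8.12 to 9.46 and 8.04 to 9.0). ATP6V1A had 9.55 with DMSO, 9.93 untreated, 10.82 with IC20 and 10.87 with IC50. ATP6V1E1, of the peripheral stalks, had 9.45, 9.75, 10.58 and 10.78, and its partner ATP6V1G1 had 9.76, 10.48, 11.24 and 10.89. ATP6AP2 had 11.21, 10.98, 12.42 and 12.30. In each of these 6 genes both treated arrays lay above both control arrays. In the V1 genes among them the untreated array was already above DMSO. It was so by 0.72 in ATP6V1G1, 0.68 in ATP6V1C1, 0.38 in ATP6V1A, 0.30 in ATP6V1E1 and 0.27 in ATP6V1D. In ATP6AP2 the untreated array lay below DMSO (-0.23).

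The lower pair was CTSC and CTSH. CTSC had 11.61 with DMSO, 11.40 untreated, 10.34 with IC20 and 10.29 with IC50, and CTSH had 7.20, 7.66, 5.75 and 6.18. CTSH ended near the negative controls. With the untreated array as the control, 4 members were higher and 2 lower, where 4.56% of all genes were higher and 4.81% lower. The 4 were ATP6V1C1 (2.37 at IC20 and 1.80 at IC50), ATP6V1D (1.84 and 1.63), ATP6AP2 (1.45 and 1.32) and CTSK (1.36 and 1.42), and the lower pair stayed the same. ATP6V1A (0.90 and 0.94), ATP6V1E1 (0.84 and 1.04) and ATP6V1G1 (0.77 and 0.41) no longer reached 1 log2 unit at both doses, which left 2 of the 5 V1 genes. By the IC20 array alone 9 members were higher and 4 lower, where 11.6% and 12.8% of all genes were, and by the IC50 array alone 8 were higher and 2 lower, where 9.38% and 8.83% were. CTSD and ATP6AP1, which passed in MDA-MB-231, did not reach 1 log2 unit at both doses here. CTSD moved in opposite directions at the 2 doses: it had 15.12 with DMSO, 15.31 untreated, 13.67 with IC20 and 15.64 with IC50. ATP6AP1 had 11.64, 11.83, 12.04 and 12.53, with both treated arrays above both controls, by 0.41 and 0.90 from DMSO, the direction seen in MDA-MB-231. The IC20 array had the narrowest interquartile range of the MCF10 arrays (3.34 against 3.51 to 3.62), and the part of that in the IC20 values was not tested.

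**Figure D4:**
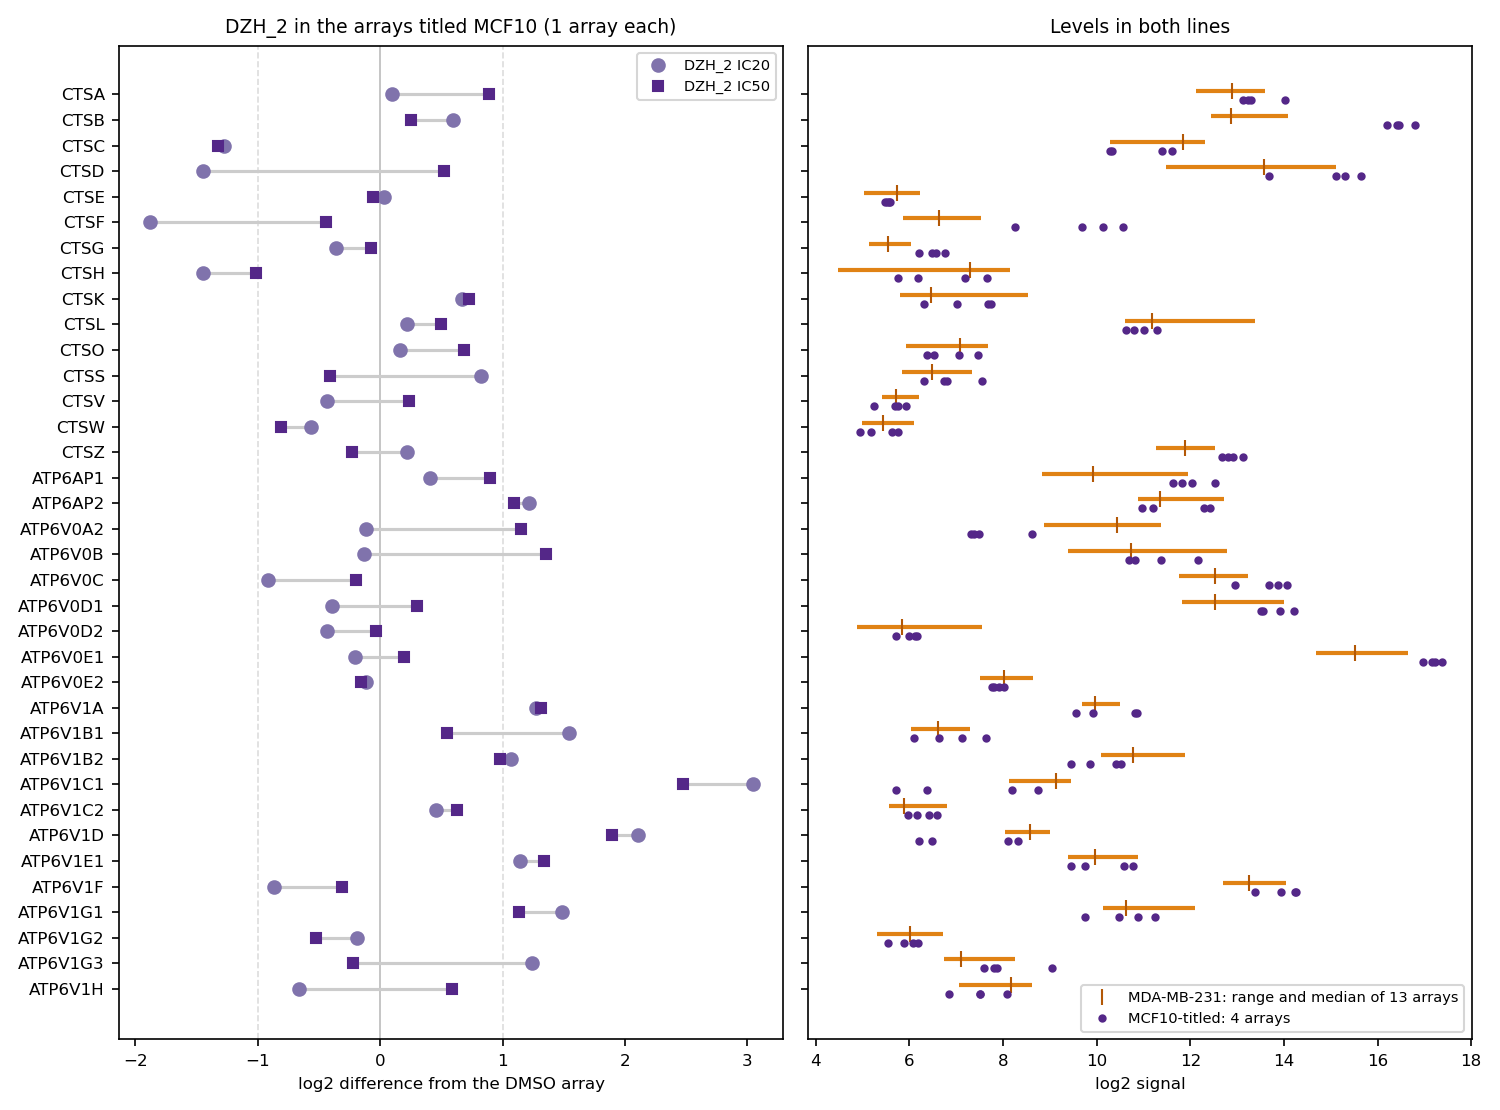
Left, log2 difference from the DMSO array (x axis) of each member (y axis) with DZH_2 IC20 (circles) and IC50 (squares) in the arrays titled MCF10, with dashed lines at 1 log2 unit. Right, log2 signal (x axis) of the same members over the 13 MDA-MB-231 arrays (bar, lowest to highest, with the median as a tick) and on the 4 MCF10 arrays (points). ATP6V1C1 and ATP6V1D had the largest differences, and CTSB the largest gap between the lines.

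Levels of most members overlapped between the lines. All 4 MCF10 arrays lay above all 13 MDA-MB-231 arrays for 5 members and below for 1, where 6.04% of all genes were higher and 11.9% lower without overlap. CTSB had 16.21 to 16.81 in MCF10 against 12.45 to 14.09 in MDA-MB-231, a gap of 2.12 between the nearest arrays. CTSF had 8.25 to 10.56 against 5.87 to 7.52 (gap 0.73) and ATP6V0E1 16.96 to 17.37 against 14.68 to 16.66 (gap 0.31). CTSG, at 6.20 to 6.75 against 5.14 to 6.03, was near the negative controls in several groups (gap 0.17), and CTSZ lay 0.16 apart. ATP6V0A2 was the lower one, at 7.31 to 8.63 against 8.87 to 11.38 (gap -0.24), and under quantile normalization it overlapped. Line, culture and array handling cannot be told apart in this comparison.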

How the data were processed

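Total RNA was extracted with Trizol and labelled with the GeneChip WT PLUS kit, per the labels' protocols. Each array has 24351 deposited values, log2 signals of probe sets, which were used as deposited. The sources used here do not give how the authors summarised and normalized them. Of the probe sets, 17709 had 1 gene symbol, and the probe set with the highest mean was kept for genes with several, which left 17687 genes. Per-array columns of no listed sample numbered 0. Groups were taken from the titles.

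All 12 MDA-MB-231 arrays with replicates, in 6 groups, entered 1 limma fit (version 3.58.1, functions lmFit, contrasts.fit and eBayes, in R 4.3.3 with the data.table package at 1.17.8), with 6 residual degrees of freedom. Log2 differences are given ± the standard error of that fit. Tests were 2-sided, and p-values were adjusted over all genes by the Benjamini-Hochberg method, with calls under 0.05. With 2 arrays against 2, an exact permutation test cannot go below p = 1/3, so none was used. Arrays carry no counting depth, and their number limits the precision. The labels do not say whether replicates were separate cultures, and p-values then reflect only how far apart these arrays were, possibly for technical reasons. The fit was tested on simulated data.

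The members, the lists and the tests were chosen with earlier results of these data known. Values on single arrays are given for members that passed in at least 1 comparison of a compound with its solvent, though not for every group. Other members are given by counts and differences, some with array values. For MCF10, members past 2-fold at both doses and the largest gaps between the lines are given. Up to 4 genes per list are given by smallest p, and TCIRG1 always. Of the 36 members 34 passed a filter on dim genes (75th percentile of negative controls on at least 2 arrays), which was used only as an alternative. Same-numbered replicates were checked for pairing: the correlation of their deviations lay between -0.08 and 0.30, and with 2 numbers no pairing is established. Promoters and gene names come from RefSeq.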

Additional observations from a re-analysis of the deposited data

Results flagged for a closer look

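In 3 members every DZH_2 array moved one way from DMSO in MDA-MB-231 and both DZH_2 arrays moved the other way in MCF10. How many of all genes meet this rule was not counted. In MDA-MB-231 alone, 22.7% of all genes lay higher than DMSO and 22.2% lower without overlap at IC20. At IC50 these shares were 26.5% and 23.5%. The 3 members are therefore listed and not read as particular to this group of genes. The difference between the lines was not tested, since MCF10 has 1 array per condition. ATP6AP2 was -0.17 from DMSO in MDA-MB-231 (mean of 4 treated arrays) and 1.15 in MCF10 (mean of both doses). ATP6V0C was 0.57 in MDA-MB-231 and -0.56 in MCF10. ATP6V1F was 0.77 in MDA-MB-231 and -0.59 in MCF10. None of the 3 passed the test of DZH_2 against DMSO in MDA-MB-231 at either dose.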

How the results depend on the processing

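The count of members that passed with Maraviroc IC50 against ethanol was 17. It was 8 with the 4 arrays of the 2 groups fitted alone, 10 with array weights and 10 to 14 without 1 replicate. ATP6AP1, ATP6AP2, ATP6V0B, ATP6V0D1, CTSC and CTSK passed in all 13 alternatives. Against Maraviroc IC20 the count of 13 became 7 with the groups fitted alone and 6 to 15 without 1 replicate. For the difference of the compounds at IC50 it was 1, with 2 under quantile normalization, 9 against all 5 control arrays and 1 to 3 without 1 replicate. For DZH_2 it was 2 at each dose, 0 to 2 without 1 replicate at IC20 and 0 at IC50. The comparisons of Maraviroc IC20 with ethanol, of the DZH_2 doses, of the compounds at IC20 and of the solvents gave 0 members without any 1 replicate. The 31 list genes that passed with Maraviroc IC50 became 17 with the groups alone, 49 against all 5 controls and 20 to 41 without 1 replicate. In MCF10 the 8 members past 2-fold became 13 by the IC20 array alone, an alternative chosen after seeing the data. With the replicate number as a block, 18 members passed for Maraviroc IC50 (14 higher, 4 lower). The count over all 17687 genes moved with the settings as well. It fell without either ethanol array for Maraviroc IC50 against ethanol, and without either DMSO array for DZH_2 against DMSO. For Maraviroc IC50 against ethanol it was 4778, with 2399 for the groups fitted alone, 3218 with array weights and 6846 against all 5 controls. Against Maraviroc IC20 it was 4719, with 2632 for the groups fitted alone. For the difference of the compounds at IC50 it was 1091, with 1199 under quantile normalization and 3690 against all 5 controls. The cause of these changes was not tested. With 2 arrays per group and 1 spread per gene over all groups, small differences and those of genes near the negative controls are beyond these arrays.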
